A study of Rattus norvegicus with 9 samples.

Results

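The retinas of 5 control rats are described here on their own, out of 9 rats with arrays in the series. All 5 were male Sprague-Dawley rats, a stock of albino laboratory rats, that were injected intraperitoneally with the sodium citrate vehicle alone and served as the comparison group of a study of streptozotocin diabetes of 3 months. Retinas were excised, snap-frozen and processed whole, so every cell type of the retina is mixed in each sample, and fewer cells of a type and less RNA per cell cannot be told apart. Biotin-labelled RNA of 1 rat was hybridized to each Illumina RatRef-12 array, on which every probe is carried by many beads. The average bead signal is the mean brightness of those beads on a linear scale, and the detection p-value says how often background beads are as bright. The members were the genes with a symbol whose probe had a detection p under 0.05 on all 5 arrays, which were 6867 of 12978 named genes.

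The retina turns light into nerve signals in layers. Rods and cones absorb light in stacked membrane discs of the outer segment and close a cyclic GMP-gated channel through a G protein cascade. Bipolar cells carry the signal inward, horizontal and amacrine cells shape it, ganglion cells send it to the brain through the optic nerve, and Müller glia span all layers and feed, buffer and recycle for the neurons. In rodents most retinal cells are rods.

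Of 22226 probes, 9698 were detected on all 5 arrays, which is 43.6%, and 9160 were detected on none, which is 41.2%. Between 10843 and 11524 probes were detected on each array, and the median signal of an array lay between 70.0 and 84.4. Of the olfactory receptors, a large family typical of the nose, 21 of 1149 named genes were detected on all 5 arrays, or 1.83%, against 52.9% of all named genes. Of 16 genes that mark liver, pancreas, pituitary, kidney, testis, mammary gland and lung, 0 were detected on all 5 arrays, 4 on 1 or 2 arrays (Prl, Tnp1, Csn2 and Prm2) and 12 on 0 arrays. The markers of the labelled tissue, retina, are described next.

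Detected genes were ordered by their mean log2 signal and given a percentile rank, in which 100 is the brightest. The brightest tier (ranks 90 to 100) held 687 genes with mean signals from 2618 to 20685. The middle tier (ranks 40 to 60) held 1374 genes between 280.3 and 608.5, around the median of 404.0. The faintest tier (ranks 0 to 10) held 686 genes between 75.2 and 104.8, next to the typical background of the arrays. A gene's signal depends on its probe as well as on its RNA. In 41 genes with several detected probes the ranks of those probes lay a median of 25.7 percentile points apart and at most 71.4, and in 21 of the 41 they lay more than 25 points apart. Ranks therefore describe signal, and no single gene is placed above another in amount of RNA. The signals given for controls 1 to 5 in that order are as deposited and follow the brightness of each array, whose median over the detected probes was 364.6, 300.5, 337.2, 432.6 and 381.2. A gene that was lowest in control 2 and highest in control 4 kept the order of the arrays.

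**Figure D1:**
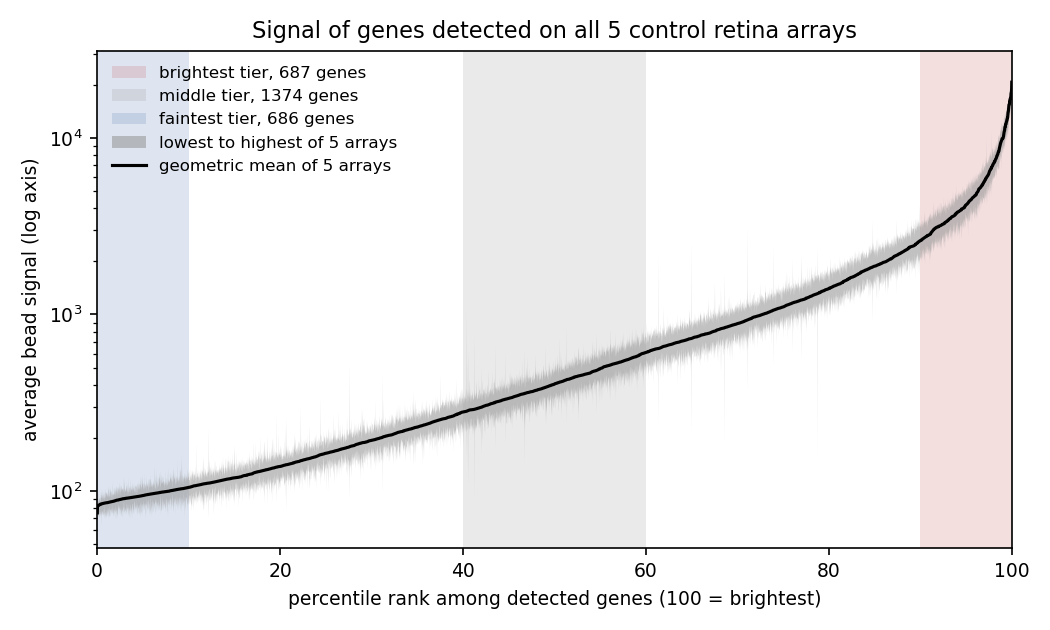
Average bead signal (vertical, log axis) of the 6867 detected genes against their percentile rank (horizontal), with the geometric mean of the 5 control retinas as a line, the lowest to highest array as a grey band and the 3 tiers shaded. Signals run from 75.2 at the faintest gene to 20685 at the brightest, with a median of 404.0.

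The tiers held across animals to different degrees. In the brightest tier 622 of 687 genes (90.5%) were in that tier on every array, in the middle tier 1018 of 1374 (74.1%), and in the faintest tier 372 of 686 (54.2%). Membership of the faintest tier also turned on the detection threshold, because the tiers are cut anew over the genes that pass. At a detection p under 0.01 the ranked genes were 6220, and 87 of its 686 genes stayed in it. Without a detection filter 12978 genes were ranked, and 0 stayed. The brightest tier kept 622 and 687 of its 687 genes. The order of the genes changed little, so these counts follow from the number ranked and do not measure how steady a tier is. Controls 1 to 3 had been hybridized on one BeadChip, the glass slide that carries the arrays, and controls 4 and 5 on another. Between the BeadChips, limma's moderated test called 0 of 9698 probes (0%) at an adjusted p under 0.05, and 355 had an unadjusted p under 0.05. Leaving out control 4 or 5 puts a single rat on the second BeadChip, so no slide difference is read from those fits.

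The 20 brightest genes came mainly from photoreceptors, crystallins and protein synthesis. They held 5 genes of the rod and photoreceptor lists, 3 crystallins and 4 cytosolic ribosomal proteins. The crystallin gene Cryba2, a structural protein best known from the lens, read 23211, 20619, 19919, 20006 and 19857 in controls 1 to 5. Prph2 encodes peripherin 2, the tetraspanin that bends the rims of the outer segment discs, and read 18908, 18882, 17770.0, 20303 and 18679.6. The 5 rats lay close together for Prph2, and control 1 was the highest for Cryba2. Fth1, the heavy chain of the iron store ferritin, read 19544, 16696, 17285, 21018 and 18060.4. Oaz1, the antizyme that limits polyamine synthesis, read 17973, 15146, 15157, 19659 and 16592. Atp6v0c, a membrane subunit of the proton pump that acidifies synaptic vesicles and lysosomes, read 18802, 13553, 14895, 18971 and 16806. In these 3 genes controls 1 and 4 were the highest and control 2, the dimmest array, the lowest. The remaining brightest genes outside the lists included the chromatin proteins Hmgn2 and Hmgn1 and the calmodulin regulator Pcp4. Among the 20 brightest probes, 7 had no gene symbol and could not be named.

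Rod phototransduction genes sat high in the range. Of 18 genes on the array 16 were detected, their median rank was 87.0 (SD of the list median over the 5 arrays 1.09), and 7 of the 16 fell in the brightest tier, where 10.0% of all detected genes lie. Light activates the rod G protein transducin, whose alpha subunit Gnat1 read 8060.4, 5899.6, 6929, 7482 and 7815 and whose beta subunit Gnb1 read 18754, 17066, 17447, 18854 and 18332. Control 2, the dimmest array, was the lowest for both subunits. Transducin switches on the phosphodiesterase that breaks down cyclic GMP: its beta subunit Pde6b read 13415, 9629, 10869, 14364 and 12369. The alpha subunit Pde6a read 2442, 1529.8, 1363, 2412 and 1852, with controls 1 and 4 high and control 3 low. Both subunits were detected in every rat, Pde6b in the brightest tier and Pde6a at rank 84.9. The cyclic GMP-gated channel Cnga1, which closes as the messenger falls, read 2360.2, 1938, 1872, 2739 and 2214.

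The genes that end the rod response were spread more widely. Sag, the arrestin that caps activated rhodopsin, read 16419, 16915, 16024, 18436 and 15936. The rhodopsin kinase Grk1 read 2160.0, 1712, 1895, 2349 and 1960.2, and its calcium-dependent brake Rcvrn (recoverin) read 9038, 6759, 7069, 10376 and 9269.6. Pdc (phosducin), which binds the transducin beta and gamma subunits, read 14067, 11406, 12072, 15679.6 and 14494. Sag, Rcvrn and Pdc lay in the brightest tier and Grk1 at rank 86.3. The GTPase-activating complex that shuts transducin off had lower ranks, with Rgs9 at rank 42.1, its anchor Rgs9bp at 51.1 and Gnb5 at 70.9. The guanylate cyclases that restore cyclic GMP had lower ranks as well, with Gucy2f at 46.0 and Gucy2d at 28.8, the faintest detected gene of the list, which read 192, 152, 164, 226 and 209. Their calcium sensors were Guca1a, which read 18127, 17745, 16839.5, 17986 and 17675, and Guca1b at rank 69.7. The other 2 members were detected on 1 array only, the exchanger Slc24a1 and the cyclase Gucy2e. Rhodopsin itself had no probe under its symbol in the annotation used and was not analysed here.

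Genes that build and maintain the outer segment had a median of 94.9 (SD over arrays 0.26), the highest of the cell type lists by the rule used here, with 17 of 19 detected and 9 of the 17 in the brightest tier. Rom1, the partner of peripherin at the disc rim, read 16439.8, 14985, 15588, 17085 and 15819.8. Cdhr1, a cadherin at the base of the outer segment, read 16998, 13046, 15219, 14425 and 18003, with controls 1 and 5 the highest. Reep6, a membrane-shaping protein of rods, read 12440.2, 11557, 11991, 14615 and 13185. Unc119, which carries lipid-anchored transducin, Aipl1, the chaperone of phosphodiesterase, Prom1, the disc protein prominin, Abca4, the retinoid flippase of the discs, and Tulp1, a factor in transport to the outer segment, completed the brightest members, with ranks of 98.4, 96.6, 96.3, 95.5 and 94.9. The middle tier held Rdh12, a retinal reductase, Impg1, a matrix proteoglycan, and Arl6, a ciliary transport protein, with ranks of 59.7, 57.9 and 43.9. Impg2 was the faintest detected member at 36.3 and read 229, 209, 230.0, 284 and 262. Kcnv2, a potassium channel subunit, was detected on 0 arrays and Crb1, an adhesion polarity protein, on 1. Averaging a gene's probes in place of taking the brightest moved the median of this list to 84.0, below rod phototransduction at 87.1 and Müller glia at 84.3. Without a detection filter it was 91.2, below rod phototransduction at 92.4.

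The homeodomain factors CRX and OTX2, which drive photoreceptor genes in mammals, recognise a core written TAATCC. The 300 bases around the start of each gene (250 before and 50 after) were read from RefSeq on the rat build GRCr8, and TAATCC was searched on both strands. It was present in 8 of 30 promoters of the rod and photoreceptor structure lists (26.7%), in 7.11% of all 27457 promoters and in 5.39% of the promoters of detected genes. Shares above that of all promoters were not particular to these lists. The core was present in 3 of 7 pigment epithelium, 2 of 10 bipolar and 2 of 12 lens promoters. It was present in 0 of 13 glycolysis and 3 of 50 cytosolic ribosomal promoters. Those of the brightest-tier members are shown because they join the letters to the signals above, with the match in capitals (GGATTA is the same core read from the opposite strand). The promoters lie on GRCr8 at chr9:21579025-21579324 on the minus strand for Prph2, at chr9:21086392-21086691 on the plus strand for Guca1a, at chr10:57163406-57163705 on the minus strand for Aipl1 and at chr2:212849235-212849534 on the plus strand for Abca4.
Prph2: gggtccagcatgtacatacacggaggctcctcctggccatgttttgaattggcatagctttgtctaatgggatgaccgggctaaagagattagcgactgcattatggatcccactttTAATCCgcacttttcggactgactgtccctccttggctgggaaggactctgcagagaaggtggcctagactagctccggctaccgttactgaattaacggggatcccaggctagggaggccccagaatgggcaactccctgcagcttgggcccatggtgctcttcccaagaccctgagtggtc
Guca1a: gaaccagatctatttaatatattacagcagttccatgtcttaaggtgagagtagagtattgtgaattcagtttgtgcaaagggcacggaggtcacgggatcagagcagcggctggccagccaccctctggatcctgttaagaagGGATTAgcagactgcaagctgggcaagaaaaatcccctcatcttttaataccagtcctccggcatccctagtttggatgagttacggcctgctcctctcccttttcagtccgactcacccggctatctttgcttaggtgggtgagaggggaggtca
Aipl1: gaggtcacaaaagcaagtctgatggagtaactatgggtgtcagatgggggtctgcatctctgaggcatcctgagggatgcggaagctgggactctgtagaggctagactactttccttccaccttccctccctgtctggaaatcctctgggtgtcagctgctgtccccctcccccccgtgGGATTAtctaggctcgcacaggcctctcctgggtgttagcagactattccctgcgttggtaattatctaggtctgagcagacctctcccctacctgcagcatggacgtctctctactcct
Abca4: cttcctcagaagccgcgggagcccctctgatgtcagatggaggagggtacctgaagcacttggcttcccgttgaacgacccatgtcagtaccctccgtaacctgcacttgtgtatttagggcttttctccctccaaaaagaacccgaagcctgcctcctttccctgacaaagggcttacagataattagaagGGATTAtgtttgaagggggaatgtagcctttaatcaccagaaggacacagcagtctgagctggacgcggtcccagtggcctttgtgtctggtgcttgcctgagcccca
The match began 133 bases before the start in Prph2, 106 in Guca1a, 70 in Aipl1 and 58 in Abca4. The other 4 promoters with a match were those of Pde6a, Rbp3, Gucy2f and Cabp4, whose signals ranked from 37.6 to 84.9. A match is a run of letters only, and whether a factor binds there was not measured.

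The transcription factors of photoreceptors covered the whole range, with 7 of 9 detected and a median rank of 59.0 (SD over arrays 2.34). Otx2, needed for photoreceptor fate and kept on in bipolar cells, read 13938, 9962, 11208, 14301 and 12945. Neurod1, a survival factor of photoreceptors, read 3017, 2529.5, 3072, 3609.8 and 3333. Both lay in the brightest tier. Crx read 901, 683, 848, 1131 and 932 and Nrl, the switch from cone to rod fate, read 539, 559, 519, 659 and 635, at ranks 70.0 and 59.0. Prdm1, which in mice acts in the choice between photoreceptor and bipolar fate, was the faintest detected member at 14.8. Esrrb was detected on 0 arrays and Mef2d on 4.

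Cone genes were spread across the range, with 9 of 10 detected and a median of 60.1 (SD over arrays 1.15). The cone transducin Gnat2 was the only member in the brightest tier and read 4137, 3948, 3556, 5526 and 4169.8. Thrb, the thyroid hormone receptor that sets the green cone type, read 1158, 999.6, 948, 1606 and 1262. The cone phosphodiesterase inhibitor Pde6h read 829, 1263, 1285, 1200.0 and 1218, with control 1 below the others. The probes of the cone opsins ranked lower. Opn1sw, for short wavelengths, read 299, 217, 240.2, 295 and 327 and Opn1mw, for middle wavelengths, read 88.4, 94.3, 88.4, 122 and 100.1, at ranks 39.4 and 6.79. Opn1mw lay in the faintest tier. The cone channel subunit Cnga3 was detected on 0 arrays.

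Bipolar markers were spread across the range. Of 14 on the array 11 were detected, with a median of 52.6 (SD over arrays 3.02), 3 in the brightest tier and 1 in the faintest, and without control 1 the median fell below 50, to 47.0. Gnao1, the G protein of the ON bipolar response and of many other neurons, read 9877, 7891, 8796, 10759.9 and 9086. Rgs7, which shuts that G protein off, read 4017, 3005, 3354, 4971 and 4076. Pcp2, shared in the nervous system with Purkinje cells, read 3999.7, 3306, 3573, 4769.6 and 3125. The ON bipolar channel Trpm1, at rank 11.6, read 115, 87.7, 117, 125 and 107 and its synaptic partner Nyx, at 11.2, read 116, 111, 93.2, 116 and 109. The faintest detected member was Lhx4, a homeobox factor, at 3.83. The ON bipolar glutamate receptor Grm6 was detected on 0 arrays, as was Bhlhe23, and Cabp5 was detected on 4.

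Amacrine markers had 21 of 23 genes detected and a median of 54.4 (SD over arrays 3.08), with 2 in the brightest tier, 4 in the middle and 1 in the faintest. The GABA-synthesizing enzyme Gad1 read 6929, 5419.9, 6558, 7692 and 7493, while its isoenzyme Gad2 read 172, 142, 239, 237 and 206. Tfap2b, an amacrine transcription factor, read 4229, 3046, 3739.9, 5099.9 and 4344, and Pax6, shared by amacrine and ganglion cells, read 2438, 1786, 2590.0, 2868 and 2693. Gad1 and Tfap2b lay in the brightest tier, Pax6 at 89.3 and Gad2 at 30.3. Of the peptide transmitters, Penk ranked at 80.0, Tac1 at 73.3, Vip at 54.4, Npy at 46.2, Sst at 36.1 and Cck at 35.4. Markers of sparse amacrine types were in the lower range, with the dopamine enzyme Th at 30.9 and the cholinergic transporters Slc18a3 and Slc5a7 at 32.5 and 9.09, the last of these the faintest detected member. Prox1 was detected on 3 arrays and Stx1a on 2.

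Horizontal cells were represented by few genes, 3 of 4 detected. The calcium buffer Calb1 read 1983, 1325, 1506, 1999 and 1814, Onecut1, a transcription factor of the type, read 765, 579, 742, 992 and 745, and Lhx1, which places the cells, read 177, 183, 219, 296 and 230.4. Their ranks were 83.3, 65.8 and 33.3, and Gja10, the connexin that couples horizontal cells, was detected on 0 arrays.

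Ganglion cell markers had 13 of 16 genes detected, a median of 56.1 (SD over arrays 0.77) and 4 members in the brightest tier. Those 4 were genes of axons and output. Sncg, gamma-synuclein, read 4788, 4777, 4333, 6149 and 5101. Nefl, the light neurofilament, read 3224, 2584, 2419.7, 4196 and 3579. Slc17a6, the vesicular glutamate transporter of ganglion cells, read 2873, 2449, 2732, 3994 and 3497. Stmn2, a microtubule regulator of growing axons, was the other of the 4, at rank 91.3. In each of the 4 genes control 4, the brightest array, was the highest. Another 5 of the 13 lay in the middle tier, among them Thy1 at 41.3 and the melanopsin gene Opn4, which marks light-sensitive ganglion cells, at 42.2. Pou4f2, the factor that specifies ganglion cells, was the faintest detected member at 22.7 and read 140.3, 127, 147, 185 and 159. Pou4f3 and the nicotinic receptor subunit Chrnb3 were detected on 0 arrays and Rbpms2 on 4.

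Müller glia genes had the highest median of the retinal cell types other than photoreceptors, with 13 of 16 detected, a median of 84.2 (SD over arrays 1.64), 6 in the brightest tier and 0 in the middle or faintest. Dbi, which encodes the acyl-CoA binding protein that also acts on GABA receptors, read 12274, 10728, 10194, 13182 and 11565. Clu (clusterin), a secreted chaperone, read 11704, 8625, 9660.3, 13239 and 11913. Apoe, the lipid carrier of glia, read 10220.5, 9495, 9950.4, 11772 and 11374. All 3 were highest in control 4, the brightest array, and lowest in control 2 or 3, the dimmest arrays. Vim (vimentin), Car2 (carbonic anhydrase) and Slc1a3, the glutamate transporter that clears the synapse, were the other 3, with ranks of 98.9, 97.1 and 93.3. Rlbp1, which carries retinaldehyde in Müller glia and pigment epithelium, read 1648, 1426, 2048, 2197 and 1736. The stem and glial factor Sox2 was the faintest detected member at 23.5. The potassium channel Kcnj10 was detected on 0 arrays, and the water channel Aqp4 and the Notch target Hes5 on 4. Most of these genes are made by other cells as well, and the gene of glutamine synthetase was not analysed here, as no probe carried its symbol.

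Astrocyte genes, 4 of 5 detected, had a median of 81.8, with the aldolase Aldoc, also counted under glycolysis and present in Müller glia, at 99.4, the connexin Gja1 at 96.1, the growth factor Pdgfa at 67.5 and S100b at 43.7. Pax2, which marks astrocytes of the optic nerve head, was detected on 0 arrays.

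Immune and vascular markers lay low. Of 16 microglia genes 8 were detected, with a median of 33.2 (SD over arrays 0.51) and 0 in the brightest tier. The protease cathepsin S, Ctss, read 1684, 1116, 1173, 1858 and 1628 and Aif1, known as IBA1, read 486, 417, 533, 668 and 725. The complement genes C1qb, C1qa and C1qc ranked at 37.2, 31.1 and 19.5, and the Fc receptor Fcgr3a was the faintest detected member at 10.9. The chemokine receptor Cx3cr1, the integrin Itgam, the leukocyte antigen Ptprc and the microglial genes P2ry12 and Tmem119 were each detected on 0 arrays. Of 15 endothelial genes 8 were detected, with a median of 30.5 (SD over arrays 2.03). The tight junction gene Cldn5 read 781, 777, 697, 997 and 947 and Vwf, the von Willebrand factor, read 476, 345, 403, 596 and 537. Egfl7, at 0.93, was the faintest of them, and the endothelial cadherin Cdh5 and the receptor Tek were detected on 0 arrays. Pericyte and smooth muscle genes had a median of 7.78, with 4 of 7 detected and 3 of the 4 in the faintest tier (Cspg4, Des and Kcnj8), while Rgs5 and Notch3 were detected on 0 arrays. Skeletal muscle genes, as found in eye muscles, had 7 of 11 detected with a median of 14.7, and the muscle creatine kinase Ckm read 104, 92.0, 96.0, 101 and 103.

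**Figure D2:**
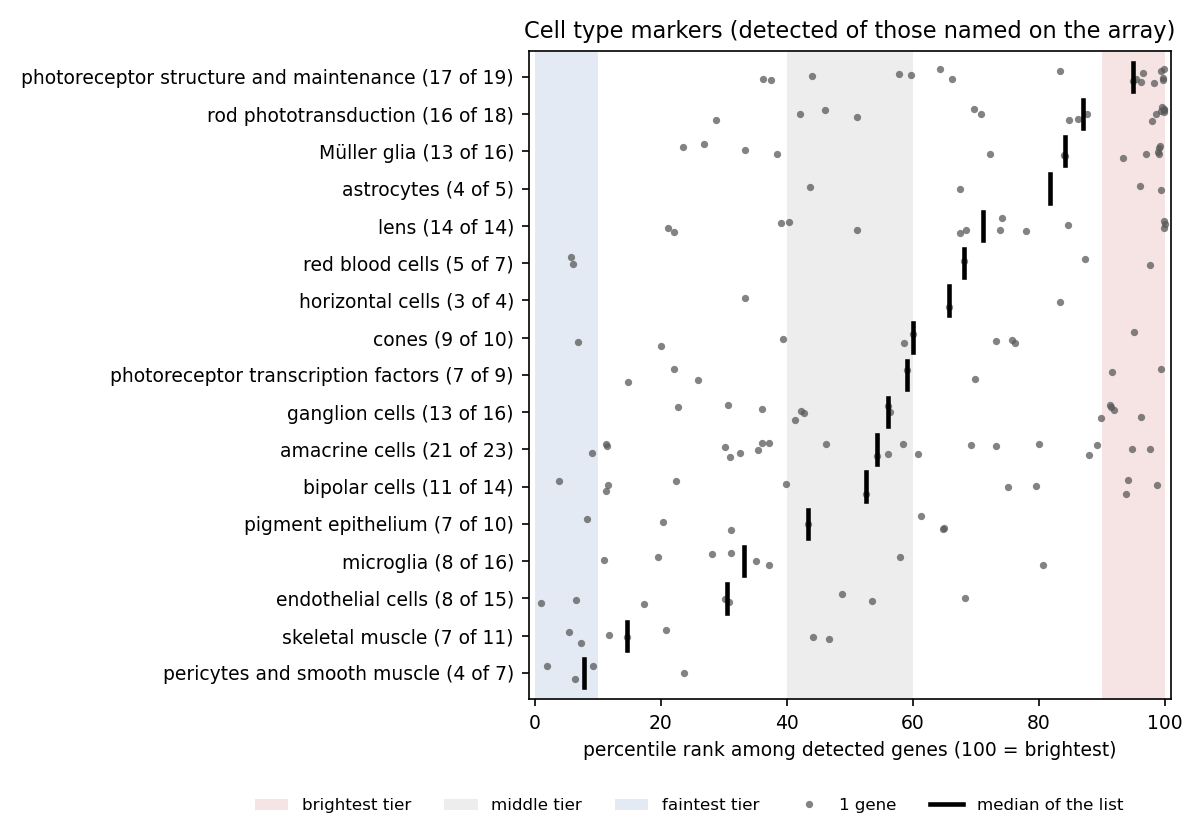
Percentile rank among detected genes (horizontal) of every detected member (point) of each cell type list (row), with the list median as a black bar, the tiers shaded and the number detected of those on the array in brackets. Photoreceptor structure (median 94.9), rod phototransduction (87.0) and Müller glia (84.2) lie at the top, inner neurons near the middle, and microglia (33.2), endothelial cells (30.5) and pericytes (7.78) at the bottom.

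Among the lists, those of tissues next to the retina and of blood held the largest shares of genes that differed between the 5 rats. After background correction and quantile normalization the median SD of a gene among the rats was 0.07 on the log2 scale, and 97.0% of genes had an SD under 0.25. Only 38 genes (0.55%) had an SD over 0.5. They included 7 of 14 lens genes, 3 of 5 red blood cell genes, 2 of 7 pigment epithelium genes and 2 of 60 ribosomal proteins. The rod, photoreceptor, cone, bipolar, amacrine, horizontal, ganglion, Müller, astrocyte, microglia and endothelial lists, of 3 to 21 detected genes each, held 0. In lists of that size 0 is near the 0.55% of all detected genes and is no trait of these cell types. Solute carriers (0 of 127) and respiratory chain genes (0 of 58) held 0 as well. The offset added in background correction shrinks the SD of faint genes (median 0.02 in the faintest tier against 0.08 in the brightest), so faint genes had less room to pass the limit. The few brightest genes had little room as well, since quantile normalization gives the top probes of each array nearly the same values.

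All 14 lens genes on the array were detected, with a median rank of 71.2 that moved between arrays from 64.4 to 84.5 (SD 7.81). Cryba2, Cryba1 and Cryab lay at the top of the scale. Cryba1, a beta-crystallin known also from retinal glia, read 16752, 17250.3, 17745, 19706 and 18506. Cryab, the alpha-B crystallin and small heat shock protein made in many tissues, read 17145, 16335, 15681, 18372 and 17137. With Cryba2 above, these 3 had normalized SDs of 0.04 to 0.11, which the normalization of the top probes limits, so no steadiness is read from them. The gamma-crystallins, abundant in lens fibres, differed between rats. Crygc read 913, 3483, 2322, 2859 and 1019 and Crygb read 564, 1504, 1231, 2435 and 515, both high in controls 2, 3 and 4 and low in controls 1 and 5. Crygd read 187, 192, 292, 1079 and 158, high in control 4 alone. Mip, the fibre water channel, read 1474, 1715, 181, 779.6 and 1161, low in control 3. Bfsp1, the beaded filament protein filensin, read 815, 1535, 713, 564 and 667, and Lim2, a fibre membrane protein, read 1739, 1874, 1068, 944 and 1003, so these fibre genes did not follow the order of the gamma-crystallins. Their SDs were 1.38 for Mip, 0.86 for Bfsp1 and 0.71 for Lim2. Whether any lens tissue came with the retinas was not tested.

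Pigment epithelium genes differed between rats in more than one order. Ttr (transthyretin), the retinol and thyroxine carrier made in that layer, read 217, 517, 1722, 2533 and 423. Rgr, an opsin of pigment epithelium and Müller glia, read 244, 376, 1366, 2195 and 394. Rpe65, the isomerase that regenerates the chromophore, read 97.7, 141, 309, 461 and 165. These 3 genes were highest in controls 4 and 3 and lowest in control 1. Rrh (peropsin), an opsin-like protein of that layer, read 635, 695, 616, 1069.7 and 699.8. After normalization Rrh was highest in controls 4 and 2, at 9.54 and 9.48 on the log2 scale, and lowest in control 1, at 8.96. Krt8, a keratin of epithelia, read 229, 325, 356, 412 and 283 and after normalization was highest in controls 2 and 3, at 8.15 and 8.14 on the log2 scale. The mean of the 7 detected genes differed 2.41-fold between the highest and lowest rat. The melanosome gene Mlana was the faintest detected member at 8.27, and Stra6 and Krt18 were detected on 0 arrays. Globin genes had a different order. Hba-a1 read 6022, 4638, 8030.5, 5365 and 11036, Hbb read 1976, 1304, 3316, 1607 and 3444 and Hbb-b1 read 674, 479, 1245, 669 and 1449, all high in controls 3 and 5, with a 1.82-fold range of the mean of the 5 detected genes. Globin genes share long stretches of sequence, so their probes may read one another. The red cell anion exchanger Slc4a1 and the globin chaperone Ahsp lay in the faintest tier, at 5.81 and 6.10. By comparison the mean over the 16 rod phototransduction genes differed 1.03-fold and over the 13 Müller genes 1.07-fold between the highest and lowest rat. Whether carried-over tissue or blood has a part in these or any other genes was not tested.

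The largest SDs of all belonged to ribosomal proteins and had the shape of a switch. Rps9 read 2325, 2094, 2200.2, 152 and 2358, far lower in control 4 than in the other 4 rats (SD 1.76). Rpl30 read 482, 2464, 375, 495 and 3121, with controls 2 and 5 high and the other 3 rats low (SD 1.74). Washc3, a subunit of an actin-regulating complex on endosomes, read 90.6, 425, 90.3, 96.0 and 524, high in the same 2 rats. Rabggta, which attaches lipids to Rab proteins, read 474, 110.0, 419.7, 618 and 137, and Cmc1, a mitochondrial copper-binding protein, read 1570.1, 611, 1377, 2073 and 754, and both were low in controls 2 and 5. Rnf113a2, a ring finger gene, read 119, 462, 529.7, 772 and 90.7, high in controls 2, 3 and 4. Washc3, Rabggta and Cmc1 were picked out after their values were seen. The rats of one group carry no order, and the cause of these splits was not tested.

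**Figure D3:**
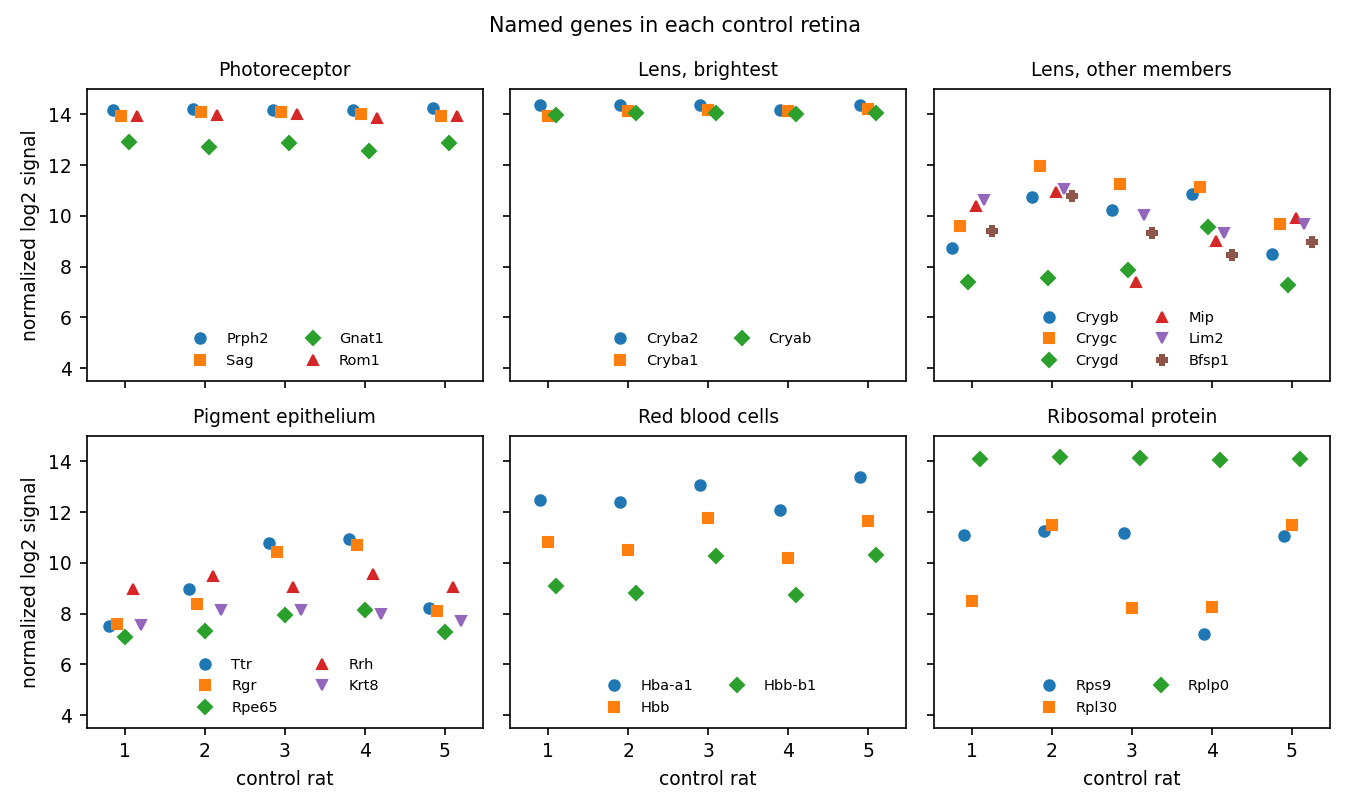
Normalized log2 signal (vertical) of named genes in each of the 5 control rats (horizontal), 1 point per gene and rat, in 6 panels. Ttr, Rgr and Rpe65 are high in controls 3 and 4 and Rrh in controls 2 and 4, globins in controls 3 and 5, Rps9 is low in control 4 and Rpl30 is high in controls 2 and 5.

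Among the functional lists, those of cytosolic ribosomal proteins, glycolysis and chaperones had the highest medians. Of the 687 genes of the brightest tier 212 (30.9%) belonged to one of the gene lists, against 159 of 1374 (11.6%) in the middle and 83 of 686 (12.1%) in the faintest tier, so most genes of each tier were in no list and their functions were not described. Cytosolic ribosomal proteins had 60 of 66 genes detected, a median of 96.6 and 44 in the brightest tier. Rplp0, of the ribosomal stalk, read 18033, 18756, 17294, 18872 and 17731, and Rpl41, the smallest ribosomal protein, read 18089.7, 15373, 15611, 18979.5 and 16286. The list also had faint members, down to Rplp2 at 17.8, which read 130.0, 95.9, 116, 204 and 123. Proteins of one particle thus spanned most of the range of signals. Mitochondrial ribosomal proteins were lower, with 57 of 60 detected and a median of 72.5, from Mrps18b at 92.6 to Mrps2 at 6.20.

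Lists of energy supply had medians from 83.6 to 96.0, with single members far lower. Glycolysis genes had 14 of 15 detected, a median of 96.0 and 9 in the brightest tier. Gpi, which isomerizes glucose 6-phosphate, read 15867, 13956, 14363, 18209 and 15639.7, the neuronal enolase Eno2 ranked at 99.2, and Ldha, which makes lactate, read 6511, 7410.0, 7422, 8544 and 8490.4. The retina is known for making lactate in the presence of oxygen. Hk2, a hexokinase of photoreceptors, was the faintest detected member at 49.7, and the glucose transporter Slc2a1 was detected on 2 arrays. The citric acid cycle had 17 of 17 detected and a median of 83.6, from the malate dehydrogenase Mdh1 at 98.8 to citrate synthase, Cs, at 16.4. Respiratory chain and ATP synthase genes had 58 of 64 detected, a median of 91.3 and 35 in the brightest tier. The catalytic ATP synthase subunit Atp5f1b read 16009, 12768, 13623, 17001 and 15104, and Cox6a1, of cytochrome c oxidase, read 14124, 12048, 13269, 16338 and 14891. The faintest detected entry was Ndufs6-ps1, at 4.78, whose symbol has the suffix of a pseudogene and which the counts of this list include.

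Lists of proteins that fold, renew or shield other proteins had medians from 70.2 to 93.4. Chaperones had 17 of 21 detected, a median of 93.4 and 11 in the brightest tier. The constitutive Hspa8 read 15887, 13994, 13619.6, 16926 and 15502, whereas Hspa1b, the stress-inducible member, was detected on 0 arrays and the small heat shock protein Hspb1 read 334, 478, 234, 311 and 259. The proteasome had 34 of 37 detected and a median of 87.3, led by Psmb1 at 98.4. Antioxidant enzymes had 24 of 25 detected and a median of 70.2. Prdx2 and Gpx4, which remove peroxides, ranked at 98.4 and 98.2, while Hmox1, the inducible heme oxygenase, ranked at 6.07 and read 113, 89.9, 97.9, 87.1 and 96.6.

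**Figure D4:**
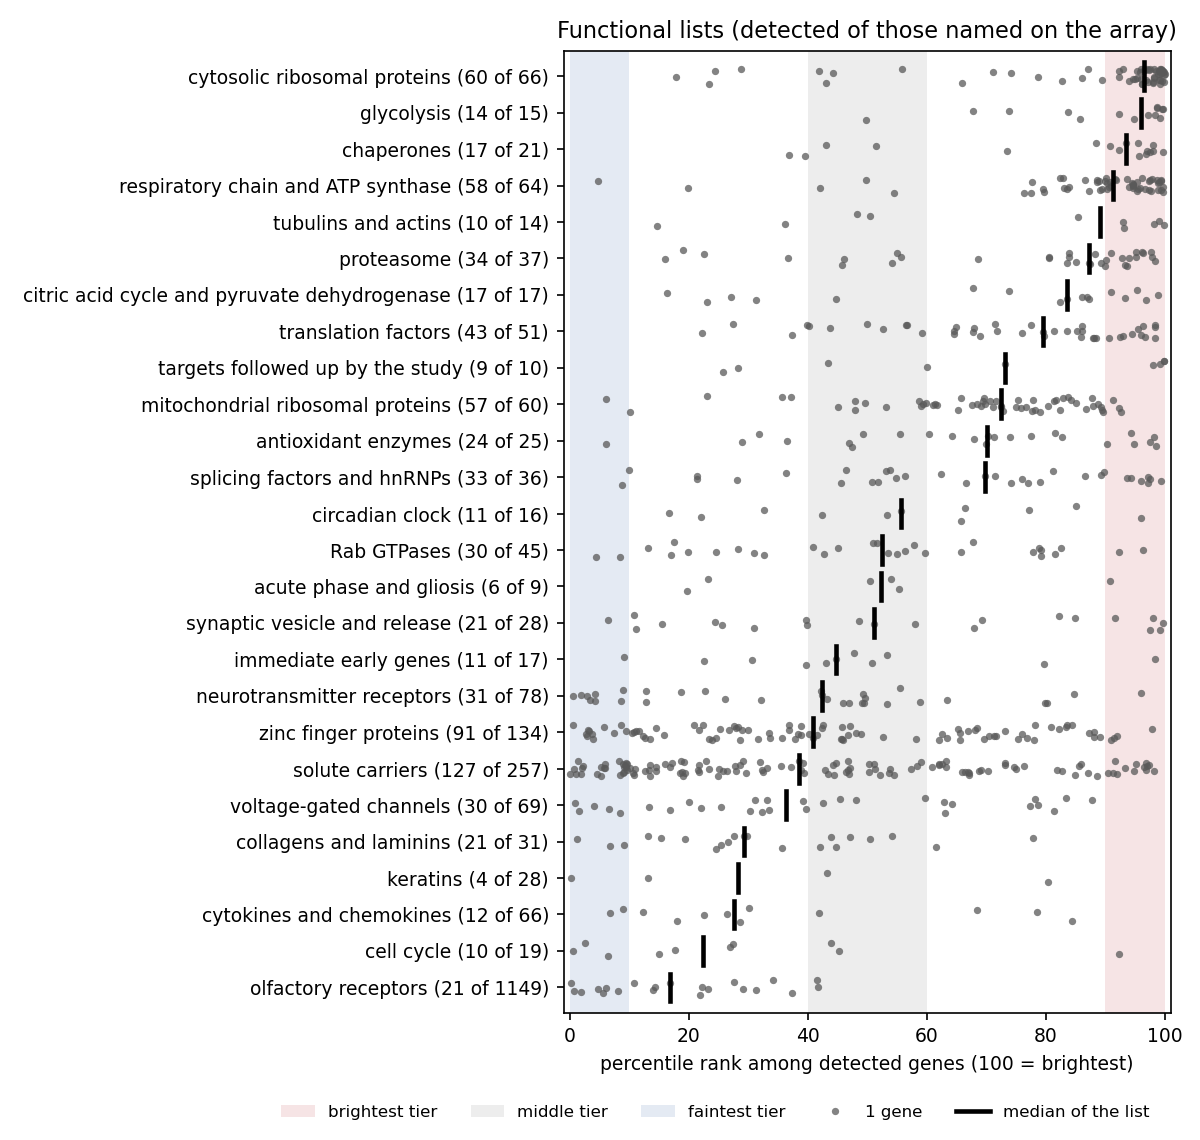
Percentile rank among detected genes (horizontal) of every detected member (point) of each functional list (row), with the list median as a black bar, the tiers shaded and the number detected of those on the array in brackets. Cytosolic ribosomal proteins (96.6), glycolysis (96.0) and chaperones (93.4) have the highest medians, and cell cycle genes (22.4) and the few detected olfactory receptors are among the lowest.

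The middle tier, with 1374 of the 6867 detected genes, held 12 of 31 neurotransmitter receptors, 10 of 30 Rab GTPases, 21 of 127 solute carriers and 4 of 30 voltage-gated channels. The 8 genes closest to the median were Ensa, Fndc3b, Tmem106b, Rbbp5, Tjap1, Cfp, Dgka and Scarb2. Ensa, a regulator of protein phosphatase 2A, read 437, 292, 413, 526 and 388. Rbbp5, of the complexes that methylate histone H3, read 415, 351, 351, 492 and 420.1. Scarb2, a lysosomal membrane protein, read 443, 382, 336, 396 and 467. Between the highest and lowest rat the normalized signal differed 1.29-fold for Ensa, 1.12-fold for Rbbp5 and 1.38-fold for Scarb2. The SD of Scarb2 was 0.21, against a median of 0.11 in the middle tier and 0.07 over all detected genes. Synaptic vesicle and release genes spanned the range around a median of 51.1, with 21 of 28 detected. Sv2b, the vesicle protein of ribbon synapses in rodent photoreceptors, read 15677, 14977, 14624, 16978 and 14947, Syt1, the calcium sensor of release, read 10426, 8882, 10243, 12713 and 11446, and Snap25, of the complex that fuses vesicles, and the vesicle protein Syp also lay in the brightest tier, at 98.0 and 97.6. The complexins of ribbon synapses Cplx4 and Cplx3 ranked at 68.0 and 48.6. Rab3a ranked at 30.9 and Sv2a at 10.8, and Cplx1 was the faintest detected member at 6.39. Of the synapsins, which photoreceptors lack and amacrine cells have, Syn2 ranked at 11.1 and Syn1 was detected on 0 arrays.

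Clock genes, 11 of 16 detected, had a median of 55.6. Cry1 and Per2, of the negative limb, ranked at 85.0 and 77.1, and Bmal1, of the positive limb, at 55.6. The dopamine receptor Drd4, rhythmic in rodent photoreceptors, read 5299, 3550.1, 4338, 6051 and 4555 and was the only neurotransmitter receptor in the brightest tier. The time of day of harvest is not stated in the sources used. Rab GTPases, which route vesicles, had 30 of 45 detected and a median of 52.5. Zinc finger proteins, mostly transcription factors, had 91 of 134 detected and a median of 40.9. Immediate early genes, induced by activity or handling, had 11 of 17 detected and a median of 44.7. Among them Jund was bright at 98.4, Egr1 read 171, 374, 245, 288 and 352, Fos was detected on 3 arrays and Arc on 0.

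Lists of receptors, channels, carriers, cytokines, matrix and cell cycle had medians below 50, and many of their members were not detected on all 5 arrays. The faintest tier, with 9.99% of all detected genes, held 8 of 31 receptors, 5 of 30 channels, 24 of 127 carriers, 2 of 12 cytokines, 3 of 21 collagens and laminins and 3 of 10 cell cycle genes. Neurotransmitter receptors had 31 of 78 detected and a median of 42.4. The brightest after Drd4 were Gabrr1, the rho GABA receptor of bipolar cells, which read 2015, 1435, 1592, 2492 and 1940.3, and the NMDA receptor subunit Grin1, which read 1550.3, 1170.5, 1243, 1789 and 1429. The serotonin receptor Htr7 was the faintest at 0.55. Voltage-gated channels had 30 of 69 detected and a median of 36.4, from the sodium channel subunit Scn3b at 87.7 to Hcn3 at 0.98. Solute carriers had 127 of 257 detected and a median of 38.5, from the mitochondrial ADP/ATP carrier Slc25a4 at 98.1 to the iron exporter Slc40a1 at 0.04.

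Cell cycle genes had 10 of 19 detected and a median of 22.4. Pcna, which also serves DNA repair, was the exception and read 3562, 2442, 2923, 4066 and 3272, while Mki67, the marker of dividing cells, read 98.2, 71.3, 101, 91.0 and 90.2 and the mitotic genes Ccnb1, Aurkb and Bub1 were detected on 0 arrays. Cytokines and chemokines had 12 of 66 detected and a median of 27.5. The brightest were Il33, a nuclear alarmin known from Müller glia, which read 2234, 1677, 1728, 2441 and 1227, Cxcl12, which read 1299.5, 993, 1189, 1631 and 1498, and the neurotrophic factor Cntf, which read 839, 761, 694, 985 and 933. Collagens and laminins had 21 of 31 detected and a median of 29.4, with the basement membrane collagen Col4a1 at 77.8. Keratins had 4 of 28 detected.

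At the very bottom, the 12 faintest detected genes were Gfpt1, Ttf2, Vcl, Srr, Eps8l3, Tnfrsf25, Smcr8, Mpp2, Gng5, Slc40a1, Rnf39 and Cav1. Cav1, the coat protein of caveolae in endothelium, read 77.5, 65.3, 71.0, 78.6 and 84.8. Slc40a1 (ferroportin) read 83.5, 73.0, 78.9, 88.5 and 84.1. Vcl (vinculin), of focal adhesions, read 95.3, 71.5, 80.8, 87.3 and 81.5. These signals overlap the arrays' median over all probes (70.0 to 84.4), so the order within the faintest tier carries little, and with a detection p under 0.01 in place of 0.05 the ranked genes fell from 6867 to 6220.

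Motifs around the start differed more between detected and not detected genes than between the brightest and middle tiers. Promoters were found for 5714 of 6867 detected genes and 4976 of 6111 genes not detected on all 5 arrays. The set not detected holds most of the olfactory receptors, of which 21 of 1149 were detected. How much that family adds to the differences below was not tested. The GC box GGGCGG on either strand was present in 62.8% of promoters of detected genes, 34.7% of those not detected and 34.9% of all promoters of the table. The TATA box core TATAAA was present in 6.79%, 18.1% and 14.3% of the same sets, and the ETS core CCGGAA in 28.5%, 11.3% and 15.8%. The median GC content was 60.7% in detected genes and 53.0% in those not detected. Within the detected genes, GGGCGG was present in 67.8% of promoters of the brightest tier and 62.7% of the middle tier, and TATAAA in 9.69% and 7.45%. For the faintest tier 79.7% of genes had a promoter, the lowest share of the 3 tiers and under the coverage required of a set, so it was left out of the comparison. Single lists departed from these tiers: the rod and photoreceptor promoters held GGGCGG in 36.7%, and the cytosolic ribosomal promoters, of which 50 were found, held CCGGAA in 52.0%. Matches of different motifs can share bases, and each share counts promoters with at least 1 match.

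**Figure D5:**
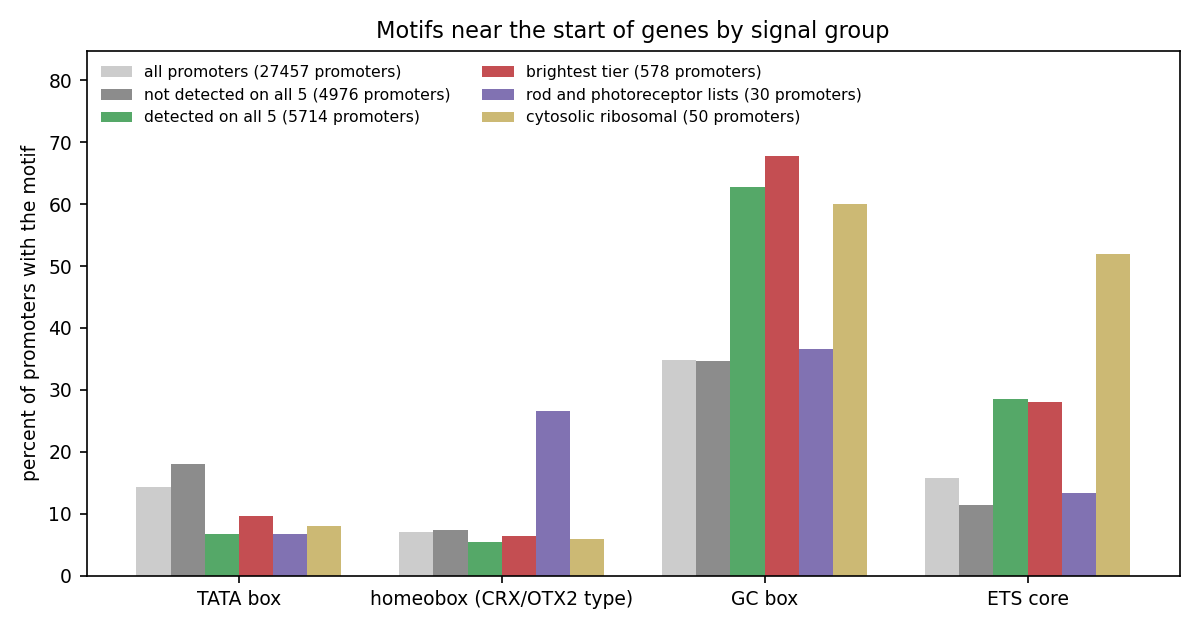
Percent of promoters (vertical) that hold each motif on either strand (horizontal) in 6 sets of genes (bars), with the number of promoters of each set. Detected genes hold the GC box in 62.8% against 34.7% of genes not detected, the rod and photoreceptor lists hold the homeobox core in 26.7% against 7.11% of all promoters, and the ribosomal list holds the ETS core in 52.0%. Lists not drawn differ in the homeobox core as well, such as 42.9% for pigment epithelium and 0% for glycolysis.

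The genes that the study followed up at the level of transcript or protein had signals in different parts of the range in these control retinas. The list held 13 such genes, not every target of the study, and 3 of the 13 had no probe under their symbol. Of the 10 on the array 9 were detected and 1 was detected on 0 arrays. Cryba1 stands here for the target that the study calls Cryba3. Cryab, Cryba1, Dbi and Gnat1, described above, lay in the brightest tier. Lgals3 (galectin 3), a lectin of activated glia, read 1175, 1202, 857, 862 and 1029. Cp, the ferroxidase ceruloplasmin, read 625, 446, 456, 725 and 916. Stat3, the transcription factor of the acute phase, read 288, 242, 299, 368 and 410.1. Control 5 was the highest of the 5 rats for Cp and Stat3, also after normalization, and not for Lgals3. Anxa5, an annexin that binds phosphatidylserine, read 179, 164, 188, 178 and 206. Fgf2, a survival factor for photoreceptors, read 132, 144, 126, 198 and 278, again highest in control 5. Acute phase and gliosis genes had 6 of 9 detected with a median of 52.3. Among them Lcn2 (lipocalin 2) read 338, 365, 417, 314 and 745, A2m (alpha-2-macroglobulin) read 2983, 2213, 2121, 3244 and 3642 and Edn2 (endothelin 2) read 151, 119, 121, 161 and 237, all highest in control 5, while the cytokine feedback gene Socs3 and the receptor Osmr were detected on 0 arrays.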

How the data were processed

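The samples were 5 control retinas, 1 rat and 1 array each, mapped by their titles. The authors scanned RatRef-12 BeadChips and deposited a table of average bead signals, an intensity per probe on a linear scale without normalization between arrays, beside a detection p-value per probe. GenomeStudio 1.0.6 is named in the submitters' processing notes. The authors also deposited the intensity of each array after their own quantile normalization, again linear (array medians within a ratio of 1.00, correlation with log2 of the first table at least 0.9998). Those values served as an alternative only. The arrays of diabetic rats were not analysed here. No column of per-sample values was left unmapped (0 columns).

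Probes were kept whose detection p was under 0.05 on each of the 5 arrays. Symbols came from the platform annotation: of 22226 probes 13192 had 1 symbol, 0 had several and 9034 had none, and 13151 gene identifiers were found in RefSeq on GRCr8. A gene was represented by its brightest detected probe. Of the detected probes 6908 had a symbol and 2790 had none. Ranks were taken over the mean of log2 signal and cut into 10 classes, of which the top, the fifth and sixth, and the lowest form the tiers. The SD between rats was taken after normexp background correction with an offset of 16 and negative controls inferred from detection p-values, quantile normalization and log2. The BeadChips were compared with limma's linear model and empirical Bayes moderation, two-sided, with Benjamini-Hochberg adjustment over 9698 probes. That step was checked on data made with known differences. Array number limits the precision. The p-values weigh the mean difference between the BeadChips against the spread between rats. Each BeadChip held different rats, so slide and rat cannot be told apart.

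Software was R 4.3.3 with limma 3.58.1, and Python 3.11.15 with pandas 2.3.3 and matplotlib 3.10.9. Lists were described by counts and medians, with no test. Named genes were the 20 brightest, the 8 closest to the median and the 12 faintest, in each list the 3 brightest, the faintest and those not detected on all arrays, the 12 with the largest SD, and the targets followed up by the study. The genes of smallest p in limma's test between BeadChips were also chosen and entered the check for outlying rats. Other list members were named for their role, after their values were seen. The members and the lists were chosen with earlier results of these data known. Alternatives were a detection p under 0.01, no detection filter, the processed values, normexp with quantile normalization, other averages over arrays or probes, each BeadChip alone, an offset of 50, median scaling and leaving out each rat in turn. A planned description of protein length was not made, as no protein sequences were used here.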

Additional observations from a re-analysis of the deposited data

Results flagged for a closer look

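In each of 53 named genes and 43 list means, 96 in all, the highest or lowest of the 5 normalized log2 values was compared with the others by Dixon's gap. It stood apart from the others in 9 cases, and chance alone sets about 1 in 20 apart. That rate does not hold for the 12 genes named for their large SD, Rps9 and Crygd among them, since such a choice favours single outlying rats. Nor does it hold for the genes of smallest p in limma's test between BeadChips, also among the 53. Those were chosen for a split of the rats by slide. In 3 genes control 4 was low: Cryba2 at 14.18 against a mean of 14.35 in the other 4 rats, Guca1a at 13.92 against 14.12 and Rps9 at 7.21 against 11.14. In Crygd control 4 was high, at 9.56 against 7.52, the lens fibre gene described in the report. In Tmem106b control 2 was low, at 8.06 against 8.26. Among list means, control 5 was low for mitochondrial ribosomal proteins, at 9.61 against 9.69, and high for acute phase and gliosis genes, at 8.89 against 8.45. Control 2 was low for the circadian clock, at 8.87 against 8.97, and for zinc finger proteins, at 8.42 against 8.44. In Cryba2 the other 4 values are equal because quantile normalization gives the same value to the brightest probe of each array. The differences from the mean of the other 4 rats were -3.93 for Rps9 and 2.04 for Crygd on the log2 scale, and under 0.5 in size in the other 7 cases.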

How the results depend on the processing

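No paired analysis was possible because only control retinas were described. The only test between groups compared the BeadChips, which held different rats. Percentile medians of 14 main lists kept their side of 50 under each alternative that ranks genes, except bipolar cells without control 1. An offset of 50 and median scaling bear only on SDs and on the BeadChip test. Without a detection filter ranks are taken over 12978 genes, and the medians moved to 92.4 for rod phototransduction, 91.2 for photoreceptor structure, 78.5 for cones, 63.5 for bipolar, 71.5 for amacrine and 69.5 for ganglion cells, 88.5 for Müller glia, 49.2 for microglia, 46.3 for endothelial cells, 84.8 for lens, 97.9 for ribosomal proteins, 95.0 for the respiratory chain, 97.3 for glycolysis and 43.9 for neurotransmitter receptors. With a detection p under 0.01 they moved to 85.7 for rods, 94.4 for photoreceptor structure, 63.2 for cones, 60.1 for bipolar and 51.6 for ganglion cells, 26.2 for microglia, 23.6 for endothelial cells, 96.2 for ribosomal proteins and 90.8 for the respiratory chain. Averaging a gene's probes gave 84.0 for photoreceptor structure. On BeadChip 1 alone the medians were 95.2 for photoreceptor structure, 51.0 for ganglion cells and 34.4 for microglia, and on BeadChip 2 alone 62.0 for cones, 58.4 for ganglion cells, 34.0 for microglia, 22.2 for endothelial cells and 32.7 for neurotransmitter receptors. Leaving out each rat in turn gave 47.0 to 54.0 for bipolar cells, 50.2 to 56.7 for ganglion cells, 32.0 to 33.8 for microglia and 23.6 to 31.7 for endothelial cells. Between BeadChips 0 probes were called without control 1, 2 or 3. Without control 4 or 5 a single rat is left on the second BeadChip, so those fits are not read as a slide result. The processed values kept 685 of 687 genes in the brightest tier and 682 of 686 in the faintest, BeadChip 2 alone kept 685 and 371, and a detection p under 0.01 kept 622 and 87. BeadChip 2 alone and the stricter threshold also changed the number of genes ranked, which by itself moves the tier limits. In lists of few genes a median is the rank of 1 gene, and signals near background limit the order of the faintest genes.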
